A study of Chlamydomonas reinhardtii with 24 samples.

Results

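The response of wild-type Chlamydomonas reinhardtii, a unicellular green alga, to 1 h of UV-B was described from 6 of the 24 RNA libraries of the series. Members were taken by the sample titles: 3 wild-type libraries with UV-B and 3 without. Both groups were strain CC5325, grown in acetate medium (TAP) in constant light (20 µmol photons per m2 and s), then washed into minimal medium (HSM) and kept dim before the treatment. Narrowband tubes gave 0.2 mW per cm2 of UV-B through a 311 nm glass filter. For the controls a 360 nm filter kept the UV-B out. Both groups received the same dim white light during the treatment. The uvr8 libraries used for comparison came from 1 line (LMJ.RY40202.156289) in the CC5325 background, treated in the same way. The series also holds the co and hy5 mutants, which makes 8 groups of 3 libraries. Its title concerns LHL4, an antenna-related protein that protects photosystem II (PSII). No label says whether the libraries came from separate cultures, so p-values measure the spread between samples, which may be technical. In the main fit that spread was estimated from all 24 libraries, the co and hy5 mutants included.

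UV-B is sensed by UVR8, a soluble receptor that becomes active as a monomer and binds COP1, a subunit of a ubiquitin ligase. In plants this releases transcription factors such as HY5 from degradation. In Chlamydomonas the pathway is known for switching on photoprotection, including proteins that dissipate absorbed light as heat (the qE process). UV-B also damages DNA and PSII directly, and cells meet that damage with photolyases, antioxidants and replacement of the D1 protein.

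UV-B changed the transcripts of many genes. Of 13613 genes with enough counts to be tested, 2215 were called at an adjusted p under 0.05 (16.3%), 1439 of them higher with UV-B (10.6%) and 776 lower (5.7%). The test was edgeR's quasi-likelihood test with Benjamini-Hochberg adjustment. Levels are given in CPM, counts as a share of the TMM-scaled library size, not corrected for gene length. A change is a log2 fold change, with its standard error (SE). Among the called rises 286 were 4-fold or more and 91 were 8-fold or more. Among the called falls 161 were 4-fold or more and 16 were 8-fold or more. Control and UV-B groups did not overlap for 95.1% of the called rises and 91.1% of the called falls. Groups that do not overlap are therefore usual for a called gene. The balance of directions depends on scaling: with library totals in place of TMM factors 914 genes were higher and 1921 lower. It was 727 and 184 with the wild-type libraries alone, and falls dropped to 310 without control library 3, 449 without control library 2 and 460 without UV-B library 3. The median change was 1.16 among the rises, -0.997 among the falls and 0.01 over all genes tested (log2).

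Lists of genes for UV-B signalling, qE, LHC-like proteins, PSII assembly and repair and carotenoid synthesis held 26 of the 1439 rises and none of the 776 falls. Together these 5 lists had 31 genes tested. A further 25 rises and 23 falls belonged to the other 31 lists described here. The remaining 1388 rises and 753 falls were in no list, as were most genes tested, since all lists held 303 of the 13613. Of the genes outside those 5 light protection lists, 10.4% were called higher, beside 10.6% of all genes tested. Absence from a list does not place a gene outside photoprotection. The files carry locus identifiers and no names, so a gene is named with its identifier.

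Rises occurred at every level of expression. They made up 6.70% of genes below 1 CPM in the controls, 10.8% at 1 to 10 CPM, 10.7% at 10 to 100 CPM, 11.6% at 100 to 1000 CPM and 13.3% at 1000 CPM or more. Falls made up 1.79%, 5.62%, 6.04%, 7.76% and 3.47% in the same order. From under 1 CPM to 10 CPM or more moved 9 called genes, of which PSBS1, ELI2 and ELI4 had a name here, and 0 called genes moved the opposite way. The 15 largest gains held 29.7% of the CPM gained by all called rises. As shares of raw counts, the genes called higher took 15.1% to 16.7% of the control libraries and 26.5% to 27.1% of the UV-B libraries, a description of genes chosen by this comparison.

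**Figure D1:**
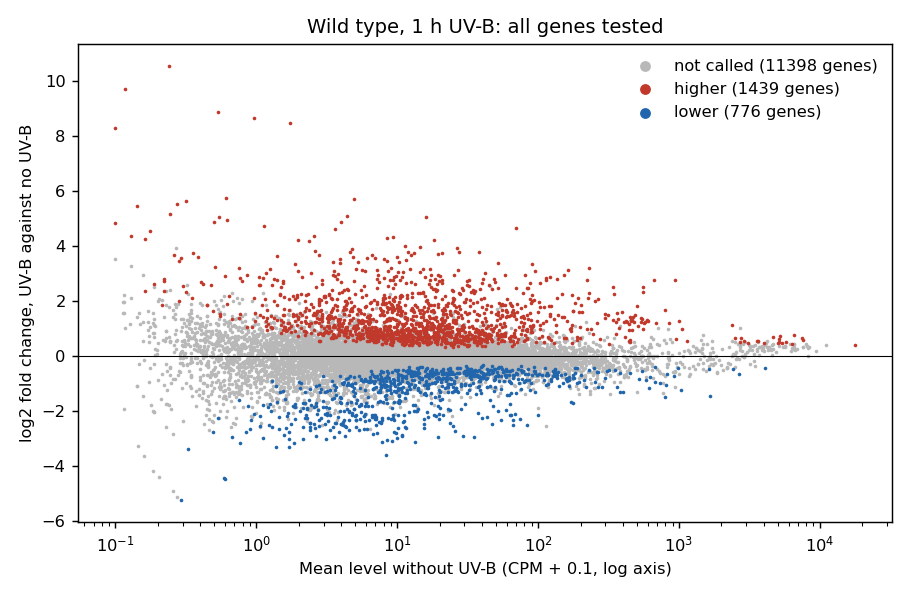
Log2 fold change with UV-B against the mean control level (CPM + 0.1, log axis) for the 13613 genes tested in wild type; each point is a gene, red where called higher (1439), blue where called lower (776) and grey otherwise. Rises are spread over the whole range of levels, and the steepest ones start near 0 CPM.

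The 6 libraries held 21480736 to 26248598 counts, and scaling factors ran from 0.670 (UV-B library 1) to 0.997. The first principal component (52.3% of the variance) separated the treatments. The second (28.8%) set both libraries numbered 1 apart from the rest. Libraries of a group differed by more than counting noise (chi-square 32.6 to 130 per df), so none was a repeat deposit of another. The algal marker transcripts RBCS2 (Cre02.g120150), PSBO (Cre09.g396213), LHCBM1 (Cre01.g066917), TUA1 (Cre03.g190950) and TUB2 (Cre12.g549550) were present in all 6 libraries, and AMT4 (Cre13.g569850), an ammonium transporter of nitrogen-starved cells, stayed between 0.147 and 1.63 CPM. Control library 1 was the lowest of the controls for 159 of the 161 4-fold falls (41.4% of all genes tested), and control library 2 the highest for 67 of the 91 8-fold rises (38.1% of all genes). The part of those libraries in single folds was not tested beyond leaving each out, as given beside the genes concerned.

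The UV-B signalling genes showed tight control and UV-B groups. COP1 (Cre02.g085050) stood at 9.04, 12.8 and 10.01 CPM in the controls and at 79.0, 69.8 and 83.3 CPM with UV-B. SPA1 (Cre13.g602700), the partner of COP1, stood at 17.3, 20.9 and 12.2 CPM without and 101, 92.3 and 113 CPM with UV-B. HY5 (Cre06.g310500), a bZIP transcription factor, stood at 11.3, 7.49 and 6.39 CPM without and 152, 152 and 184 CPM with UV-B. All 3 rose, and in each the lowest UV-B library lay well above the highest control. The receptor gene UVR8 (Cre05.g230600) ran the other way, at 48.7, 31.2 and 40.2 CPM without and 35.2, 26.3 and 29.6 CPM with UV-B. Its groups overlapped and it was not called (log2 fold change -0.40, SE 0.18, edgeR adjusted p = 0.138), but it passed once replicate number entered as a block (adjusted p = 0.0104) and with library totals (adjusted p = 0.00151). CO (Cre06.g278159), a CONSTANS-like regulator, was also not called (0.33, adjusted p = 0.213).

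Among other light receptors and clock genes, 2 cryptochromes rose. DCRY1 (Cre02.g078939), of the DASH family, went from 13.6, 11.3 and 11.8 CPM to 168, 69.1 and 90.2 CPM (log2 fold change 3.16, SE 0.31, edgeR adjusted p = 3.41e-07). UV-B library 1 was the highest, and all UV-B libraries lay above the controls. The animal-like cryptochrome aCRY (Cre06.g278251) rose from 15.5, 16 and 15.1 to 60.3, 47.1 and 53.5 CPM. Phototropin (PHOT1, Cre03.g199000), the plant-type cryptochrome CPH1 (Cre06.g295200) and the channelrhodopsins COP3 (Cre14.g611300) and COP4 (Cre02.g085257) were not called, with log2 fold changes of -0.24 to 0.49. With the replicate block COP3 and COP4 passed upward (adjusted p = 0.0223 and 0.0295). The clock gene ROC15 (Cre10.g425050) stood at 91.1, 41.0 and 86.7 CPM without and 158, 129 and 165 CPM with UV-B. The groups did not overlap and it rose (1.05, SE 0.28, adjusted p = 0.0132), but not without control library 2 (adjusted p = 0.0692). ROC40 (Cre06.g275350) and ROC114 (Cre09.g410450) were not called.

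The qE and LHC-like lists had the highest medians of the 36 lists, and their control libraries differed strongly among themselves. All 5 tested qE genes and all 5 tested LHC-like genes were called higher, beside 10.6% of all genes tested. Their median log2 fold changes were 4.64 and 5.06. In the LHC-like list ELI1, ELI2, ELI4 and ELI5 were assigned partly by matching levels to earlier results of these data. The direction of that list is therefore no independent evidence. LHL4 (Cre17.g740950) stood at 3.98, 35.6 and 7.99 CPM in the controls and at 479, 589 and 517 CPM with UV-B. LHCSR1 (Cre08.g365900), a stress-related antenna protein of qE, stood at 8.01, 168 and 31.6 CPM without and 1810, 1721 and 1637 CPM with UV-B. Control library 2 was the highest control in both, and the UV-B libraries were close to each other.

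PSBS1 (Cre01.g016600) and PSBS2 (Cre01.g016750) encode near-identical copies of the qE protein PSBS, between which reads may be split. PSBS1 had 0.344, 1.88 and 0.379 CPM without and 309, 393 and 363 CPM with UV-B. LHCSR3A and LHCSR3B, another pair of copies (Cre08.g367500 and Cre08.g367400), started from high controls. LHCSR3B stood at 629, 344 and 215 CPM without and 1599, 1015 and 1013 CPM with UV-B. Library 1 was the highest of both groups, and the groups did not overlap. The log2 fold changes of 1.58 and 1.61 (edgeR adjusted p = 0.0423 and 0.0248) were the smallest of the 10 genes, and neither call held without UV-B library 1 or control libraries 2 or 3 (adjusted p = 0.0873 to 0.189), nor that of LHCSR3A without UV-B library 3 (adjusted p = 0.0519).

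Early light-inducible proteins are thylakoid proteins made under light stress. ELI2 (Cre07.g320400) had 0, 0.3 and 0.126 CPM in the controls and 212, 233 and 235 CPM with UV-B. ELI4 (Cre07.g320450), its neighbour in the genome, had 0.147, 0.856 and 0.294 CPM without and 190.1, 216 and 217 CPM with UV-B. Both rose from almost nothing to a similar level in every UV-B library. ELI1 and ELI5 (Cre09.g393173 and Cre14.g626750) rose from controls that were already measurable, at 136 and 19.5 CPM on average.

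**Figure D2:**
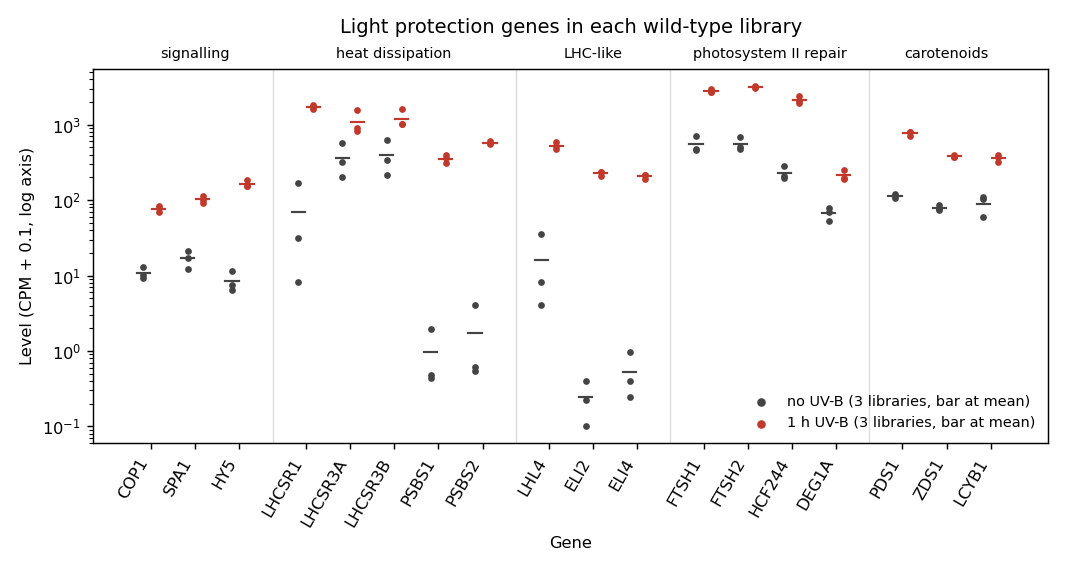
Level (CPM + 0.1, log axis) of 18 light protection genes in each wild-type library; grey points are the 3 control libraries, red points the 3 UV-B libraries and bars their means. All 18 were called higher, and none has overlapping groups, as was so for 95.1% of all called rises. The controls of LHCSR1 ran from 8.01 to 168 CPM.

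Genes for assembling and repairing PSII rose as a group. Of 10 tested, 9 were called higher (90%, beside 10.6% of all genes tested) and 0 lower, with a median log2 fold change of 2.49. HCF244 (Cre02.g142146), a factor for translation of the D1 mRNA, rose most, from 199, 286 and 209 CPM to 2370, 2060 and 1923 CPM (log2 fold change 3.19, SE 0.19, edgeR adjusted p = 1.04e-09). HCF173 (Cre13.g578650), its partner in D1 translation, rose from 102, 72.4 and 80.9 to 532, 387 and 484 CPM (2.46, SE 0.24). FTSH1 (Cre12.g485800), a subunit of the thylakoid protease that removes damaged D1, rose from 468, 717 and 483 to 2724, 3009 and 2725 CPM (2.34, SE 0.18). In all 3 the UV-B libraries lay several times above every control. DEG1A (Cre02.g088400), a lumenal protease, rose from 68.7, 78.4 and 53.1 to 254, 194 and 189 CPM. TEF30 (Cre01.g031100), which acts in PSII repair, rose from 728, 453 and 519 to 1592, 1039 and 1239 CPM (1.19, SE 0.25). The called members also held FTSH2 (Cre17.g720050), HCF136 (Cre06.g273700), RBD1 (Cre07.g315150) and TEF5 (Cre09.g411200), and all 9 calls held in each fit that left out 1 library. The exception was the insertase gene ALB3_1 (Cre06.g251900), at 89.5, 104 and 140 CPM without and 74.1, 86.5 and 77.4 CPM with UV-B, not called (-0.48, adjusted p = 0.136).

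Transcripts for carotenoid synthesis rose along the path from phytoene to beta-carotene. Of 6 tested genes 4 were called higher (66.7%, beside 10.6% of all genes tested) and 0 lower. LCYB1 (Cre04.g221550), the lycopene cyclase that makes beta-carotene, rose from 103, 109 and 59.0 to 316, 396 and 376 CPM (log2 fold change 2.01, SE 0.28, edgeR adjusted p = 3.10e-05). ZDS1 (Cre07.g314150), a desaturase, rose from 75.2, 85.1 and 74.6 to 378, 378 and 391 CPM. The UV-B libraries of ZDS1 were almost level, as were those of the upstream desaturase PDS1 (Cre12.g509650) at 807, 716 and 813 CPM. PSY1 (Cre02.g095092), for phytoene synthase, was the fourth called gene. The xanthophyll cycle genes ZEP1 (Cre02.g082550) (0.47, adjusted p = 0.104) and CVDE1 (Cre04.g221301) (-0.61, adjusted p = 0.501) were not called, and ZEP1 passed with the replicate block (adjusted p = 0.0163).

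Genes against reactive oxygen species were mixed, with 3 of 8 called higher and 1 lower. That is 37.5% and 12.5%, beside 10.6% and 5.7% of all genes tested. VTC2 (Cre13.g588150), for a step of ascorbate synthesis, stood at 3.54, 14.7 and 15.3 CPM without and 167, 158 and 211 CPM under UV-B (log2 fold change 3.99, SE 0.59, edgeR adjusted p = 5.80e-05). GPX5 (Cre10.g458450), a peroxidase gene, rose from 59.7, 114 and 77.7 to 497, 464 and 413 CPM. In both, every UV-B library lay at several times the highest control. MSD3 (Cre16.g676150), for a manganese superoxide dismutase, rose (1.91), and APX1 (Cre02.g087700), for an ascorbate peroxidase that uses the product of the VTC2 pathway, fell (-0.58). The call of MSD3 was lost if control library 1 or 2 or UV-B library 3 was left out (adjusted p = 0.0976 to 0.117), that of APX1 in 5 of the 6 fits that left out 1 library (up to adjusted p = 0.15).

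Transcripts in the list for alternative electron flow, which returns or diverts electrons around photosystem I (PSI), rose in part. Of 10 tested genes 4 were called higher (40%, beside 10.6% of all genes tested) and 0 lower. With the replicate block 7 were called higher. PGR5 (Cre05.g242400), of cyclic flow around PSI, rose from 287, 288 and 184 to 1073, 1010 and 978 CPM (log2 fold change 2.01, SE 0.21, edgeR adjusted p = 7.76e-07). CAS1 (Cre12.g497300), a thylakoid calcium sensor, rose from 125, 184 and 136 to 276, 425 and 487 CPM (1.42, SE 0.24, adjusted p = 0.000282). STL1 (Cre12.g483650), a thylakoid kinase, rose from 121, 95.5 and 95.4 to 244, 227 and 215 CPM (1.14, SE 0.20, adjusted p = 0.000361). None of these 3 had overlapping groups. NDA2 (Cre19.g750547), a plastid NADH dehydrogenase, rose by less (0.60, adjusted p = 0.0227), a call that ended when any control or UV-B library 3 was left out (adjusted p = 0.0556 to 0.115). PGRL1 (Cre07.g340200), the membrane partner of PGR5, stood at 585, 337 and 394 CPM without and 797, 536 and 542 CPM with UV-B, was not called (0.51, adjusted p = 0.224) and passed with the block (adjusted p = 0.00673). The linear chain had 0 of 10 genes called, and 5 with the block, all upward.

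Of the PSII subunit genes 3 of 5 were called lower (PSBO, PSBQ [Cre08.g372450] and PSBY), and all 5 with the replicate block, DESeq2 or library totals. LHCI antenna genes had 1 of 9 called lower (LHCA4, Cre10.g452050) and PSI subunits 1 of 8 (PSAN, Cre02.g082500), beside 5.7% of all genes tested, and none of these 22 was called higher. The calls of PSBQ, LHCA4 and PSAN were each lost in 4 of the 6 fits that left out 1 library (adjusted p = 0.0531 to 0.14) and with the wild-type libraries alone. PSBY (Cre10.g452100), a small PSII subunit, fell from 875, 929 and 967 to 531, 549 and 589 CPM (log2 fold change -0.73, SE 0.13, edgeR adjusted p = 0.000443). LHCB5 (Cre16.g673650), a minor PSII antenna protein, fell from 2900, 2527 and 2503 to 1714, 1594 and 1783 CPM (-0.64, SE 0.12, adjusted p = 0.000496). LHCB7 (Cre02.g110750), a low-level antenna gene, rose from 13.5, 26.5 and 16.2 to 103, 89.2 and 99.9 CPM (2.38, SE 0.24). In all 3 the groups were far apart relative to their spread. In tetrapyrrole synthesis, the source of chlorophyll and haem, 3 of 19 genes were called higher (CHLH1 [Cre07.g325500], DVR1 and HMOX1 [Cre10.g423500]) and 2 lower (PBGD1 [Cre16.g663900] and PPX1 [Cre09.g396300]), which is 15.8% and 10.5% beside 10.6% and 5.7% of all genes tested. Of these, DVR1 (Cre01.g042800), for divinyl reductase, was the one whose call held in every fit that left out 1 library, at 108, 95.7 and 107 CPM without and 211, 201 and 199 CPM with UV-B.

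DNA replication genes made up the list with the lowest median. Of 9 tested, 7 were called lower (77.8%, beside 5.7% of all genes tested) and 0 higher. The median log2 fold change was -2.13, beside 0.01 over all genes tested. This list, like the cytosolic ribosome and flagella lists, was drawn up after the changes of individual genes had been seen, so its direction is no independent evidence. MCM2 (Cre07.g338000), a subunit of the replicative helicase, stood at 33.6, 112 and 104 CPM in the controls and 8.01, 20.1 and 15.5 CPM with UV-B (-2.52, SE 0.47, edgeR adjusted p = 0.000639). MCM4 (Cre07.g316850), of the same helicase, stood at 23.4, 57.9 and 59.6 CPM without and 6.25, 11 and 8.27 CPM with UV-B (-2.46, SE 0.42, adjusted p = 0.000284). In both, library 1 was the lowest of each group, yet control library 1 still lay above every UV-B library.

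The DNA replication list also held genes for other parts of the machinery. ORC1 (Cre10.g455600), of the complex that marks origins, went from 4.08, 7.96 and 8.2 to 1.14, 1.83 and 1.63 CPM (log2 fold change -2.13, SE 0.47, edgeR adjusted p = 0.00351). POLA1 (Cre04.g214350), the primase-associated polymerase, went from 13.2, 28.3 and 27.6 to 4.72, 7.17 and 6.24 CPM (-1.93, SE 0.40, adjusted p = 0.00214). PCNA (Cre12.g515850), the sliding clamp, went from 84.8, 242 and 205 to 52.2, 67.1 and 41.9 CPM (-1.72, SE 0.45, adjusted p = 0.0117). Their groups did not overlap, and control library 1 was again the lowest control. The call of PCNA was lost without control library 2 or UV-B library 3 (adjusted p = 0.0591 and 0.0588) and that of MCM3 (Cre06.g295700; -2.34) without UV-B library 3 (adjusted p = 0.0526). TOP2 (Cre01.g009250), a topoisomerase, had overlapping groups, and its call (-2.54, adjusted p = 0.0250) was lost without any of 4 libraries (adjusted p = 0.0795 to 0.0922). RIR1 (Cre12.g492950), for ribonucleotide reductase, and CDC6 (Cre06.g292850), a loader of the helicase, were not called (-1.07 and -1.35, adjusted p = 0.0849 and 0.191) and passed with the replicate block (adjusted p = 0.000216 and 0.00130).

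Cell cycle genes lay on the same side. Of 6 tested, 3 were called lower (CDKA1, CDKB1 and MAT3) and 0 higher, and with the replicate block all 6 were called lower. In the main fit that is 50% lower, beside 5.7% of all genes tested. CDKB1 (Cre08.g372550), the plant-type mitotic kinase, stood at 13.4, 47.1 and 51.1 CPM without and 3.75, 16.7 and 6.13 CPM under UV-B (log2 fold change -2.06, SE 0.66, edgeR adjusted p = 0.0378). Its groups overlapped through control library 1, and the call was lost without any of 4 libraries (adjusted p = 0.104 to 0.139). CDKA1 (Cre10.g465900), the other main cyclin-dependent kinase, stood at 117, 128 and 157 CPM without and 95.5, 73.9 and 71.9 CPM with UV-B (-0.74, SE 0.15, adjusted p = 0.00188). The mitotic cyclins CYCA1 (Cre03.g207900) and CYCB1 (Cre08.g370401) and the kinase gene WEE1 (Cre07.g355250) had log2 fold changes of -1.76, -1.48 and -1.53 and were not called (adjusted p = 0.0546 to 0.0735). MAT3 (Cre06.g255450), the retinoblastoma homolog that couples division to size, fell by less (-0.50, adjusted p = 0.0488), a call lost in 5 of the 6 fits that left out 1 library.

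In RNA from whole cultures, fewer dividing cells and less of these transcripts per cell cannot be told apart. The DNA replication list had a median ratio of -1.48 between the libraries numbered 1, -1.89 between those numbered 2 and -2.28 between those numbered 3 (log2 of CPM + 0.5). The number of its members called lower was 4 to 8 over the fits that left out 1 library, 5 with the wild-type libraries alone and 9 with the replicate block. Cytoskeleton and flagella genes had 0 of 4 and 0 of 7 members called, with medians of -0.38 and -0.25. The tubulin genes TUA1, TUA2 (Cre04.g216850) and TUB1 (Cre12.g542250) were called lower with library totals (adjusted p = 0.0175 to 0.0268) and without UV-B library 1 (adjusted p = 0.0192 to 0.0481), and the flagellar dynein gene DHC1B (Cre06.g250300) with the replicate block (adjusted p = 0.0392).

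**Figure D3:**
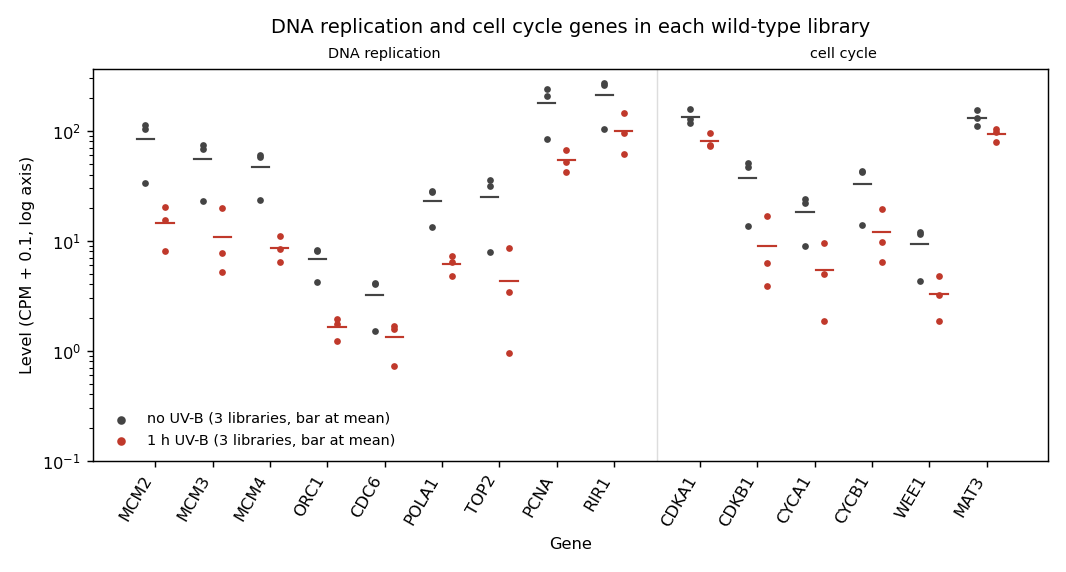
Level (CPM + 0.1, log axis) of 9 DNA replication and 6 cell cycle genes in each wild-type library; grey points are the 3 control libraries, red points the 3 UV-B libraries and bars their means. UV-B means lie below control means in all 15 genes, and 1 control library, number 1, lies well below the other two for most of them.

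Cytosolic ribosomal protein genes lay slightly above 0. All 22 tested had positive log2 fold changes (0.07 to 0.64, median 0.34), but 5 were called higher (22.7%, beside 10.6% of all genes tested). RPL22 (Cre07.g357850), a large-subunit protein, stood at 8282, 8072 and 5960 CPM without and 14017, 10182 and 10656 CPM with UV-B (0.64, SE 0.16, edgeR adjusted p = 0.00835). RPS12 (Cre10.g456200), of the small subunit, stood at 6505, 5856 and 4787 CPM without and 8905, 7689 and 7971 CPM with UV-B (0.52, SE 0.14, adjusted p = 0.0159). Both calls were lost without UV-B library 1 or control library 3 (adjusted p = 0.0673 to 0.108), and RPS7 (Cre12.g498900) and RPL8 (Cre06.g289550) lost theirs in more fits. The size of this shift rests on how the libraries are scaled. With library totals in place of the TMM factors, which moved the median of all genes to -0.25, the list's median was 0.05 and 1 of 22 was called. With the replicate block 12 were called, with the wild-type libraries alone 0, and over the fits that left out 1 library 0 to 7. As a share of raw counts the 22 genes took 12.4%, 12% and 11.3% of the control libraries and 13.5%, 11.9% and 12.2% of the UV-B libraries. The 5 light protection lists together took 0.459%, 0.517% and 0.414% without and 1.73%, 2.01% and 1.90% with UV-B. No p is given for these shares, because the lists were chosen with earlier results of these data known.

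Lipid genes changed in both directions, with 4 of 16 called higher and 2 lower. That is 25% and 12.5%, beside 10.6% and 5.7% of all genes tested. BTA1 (Cre07.g324200), which makes the betaine lipid DGTS, fell from 649, 845 and 894 to 289, 225 and 335 CPM (log2 fold change -1.49, SE 0.26, edgeR adjusted p = 0.000324). The plastid desaturase gene FAD7 (Cre01.g038600) rose from 404, 384 and 344 to 787, 799.5 and 711 CPM (1.02, SE 0.18, adjusted p = 0.000353). DGAT1 (Cre01.g045903), for an acyltransferase that makes storage oil, rose from 15.4, 18.7 and 14.6 to 34.2, 26.4 and 35.0 CPM (0.97, SE 0.18, adjusted p = 0.000612). These 3 calls held without any 1 library, and their groups did not overlap. A second acyltransferase, DGTT3 (Cre06.g299050), rose by 0.73 (adjusted p = 0.000415). FAD6 (Cre13.g590500), another plastid desaturase, rose (1.11) and SQD2 (Cre01.g038550), of sulpholipid synthesis, fell (-1.004), and each call was lost when any of several single libraries was left out (adjusted p up to 0.116 and 0.0973).

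Elsewhere in metabolism few genes passed, in small lists. The share called was 7.14% in the Calvin cycle, 5.88% in CO2 uptake, 7.69% of chaperones and 20% of iron genes. Over all genes tested it was 16.3%. PGK1 (Cre11.g467770), for phosphoglycerate kinase, was the 1 gene of 14 in the Calvin cycle to be called, from 444, 680 and 550 to 836, 1301 and 1195 CPM. RBCS1 (Cre02.g120100), for a small subunit of Rubisco with a near-identical copy, stood at 440.1, 528 and 547 CPM without and 212, 258 and 145 CPM with UV-B. Its groups did not overlap and it was not called (-1.30, adjusted p = 0.0590 in edgeR), but it passed as lower with the replicate block (0.0344), DESeq2 (0.0273), library totals (0.0244) and the wild-type libraries alone (0.0223). CAH3 (Cre09.g415700), a carbonic anhydrase of the thylakoid lumen, was the 1 of 17 in CO2 uptake, from 428, 206 and 254 to 982, 674 and 629 CPM (1.36, adjusted p = 0.0157 in edgeR). That call ended without UV-B library 1 or control libraries 2 or 3 (adjusted p = 0.0770 to 0.0796). FOX1 (Cre09.g393150), a ferroxidase of iron uptake, was the 1 of 5 iron genes called, and it fell from 40.6, 88.6 and 55.6 to 11.9, 38.7 and 18.8 CPM (-1.41, adjusted p = 0.0372). Leaving out any of 4 libraries ended that call (adjusted p = 0.0723 to 0.167). HSP90A (Cre09.g386750), a cytosolic chaperone gene, was the 1 of 13 chaperones called (-1.25, adjusted p = 0.0485), and it lost the call in 5 of the 6 fits. Lists for acetate use, starch, the tricarboxylic acid cycle and respiration, nitrogen, sulphur, phosphorus, copper, fermentation, folding in the endoplasmic reticulum, plastid membrane stress and translation factors had 0 members called. With the replicate block 1 to 3 members passed in 7 of these 11 lists, in a fit that called 3872 of all 13613 genes. In a fit of the wild-type libraries alone, calls also ended for CDKA1, LHCB5, PGK1 and DGTT3 (adjusted p = 0.0620 to 0.0841), PSBO (0.174), ROC15 (0.102) and CHLH1 (0.149).

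**Figure D4:**
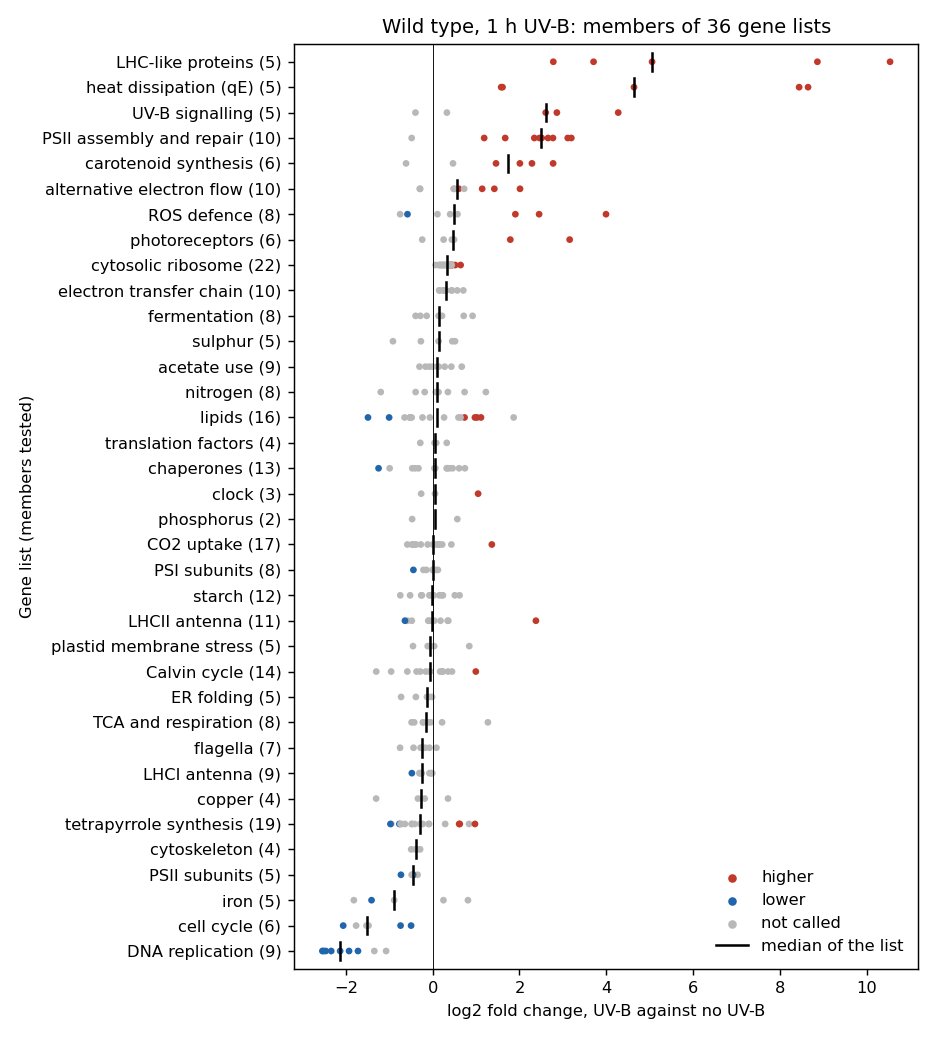
Log2 fold change with UV-B of every tested member of 36 gene lists, ordered by the list's median (black bar); red points were called higher, blue lower, grey not called, and the number tested is in brackets. LHC-like, qE, signalling and PSII repair lists stand at the top (medians 5.06 to 2.49) and DNA replication at the bottom (-2.13).

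Most called genes had no name here, as did most genes tested, since 303 of the 13613 had one. Of the 15 steepest rises at a mean of 1 CPM or more, 10 had none, and of the 15 steepest falls all 15. Cre08.g384650 stood at 1.57, 10.8 and 2.19 CPM without and 289, 242 and 236 CPM under UV-B (log2 fold change 5.71, SE 0.67, edgeR adjusted p = 2.98e-06). Cre02.g076250 had the largest gain by level among all genes without a list, from 1122, 784 and 902 to 6287, 5779 and 6858 CPM (2.75, SE 0.21, adjusted p = 1.18e-08). Cre09.g392350 had the largest loss by level, from 1678, 1603 and 1692 to 732, 720.2 and 358 CPM (-1.46, SE 0.37, adjusted p = 0.00954), and it was not called without UV-B library 3 (adjusted p = 0.0583).

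Gene order was also described. In the RefSeq gene order of assembly v5.5, used for order alone, 23.7% of the 1378 placed rises lay next to another gene called higher, compared with 16.02% of the 12683 placed genes tested. Among 4-fold rises the share was 29.5%. Of the falls, 11.9% lay next to another fall, compared with 8.65% of genes tested. Pairs of adjacent 4-fold rises numbered 16, among them ELI2 with ELI4, and PSBS2, LHCSR1 and LCYB1 each with an unnamed neighbour. These shares are a description with no test, and overlapping transcripts that share reads would also give neighbours that move together.

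The response was set beside that of uvr8, whose own libraries are separate. The test of the difference, however, also uses the wild-type libraries that made the calls. Shares of called genes that differ can be raised by that choice and are a description. The UV-B effect differed between the strains for 856 genes (6.29%), 723 with the higher effect in wild type and 133 with the lower. Of the 1439 wild-type rises 705 (49.0%) differed in this way, and of the 286 4-fold rises 243. Of the 776 falls 106 (13.7%) had a lower effect in wild type than in uvr8, and of the 161 4-fold falls 19. The strongest rises of the lists were among those that differed. HCF244 went from 159.6 to 145 CPM in uvr8 (difference of log2 fold changes 3.34, SE 0.26, edgeR adjusted p = 1.53e-07), PGR5 from 292 to 282 CPM (2.06, SE 0.29, adjusted p = 7.61e-05) and DCRY1 from 9.45 to 8.07 CPM (3.39, SE 0.43, adjusted p = 1.92e-05). All 9 called PSII repair genes, all 4 called carotenoid genes and all 5 LHC-like genes differed, as did 3 of the 5 qE genes, LHCSR3A and LHCSR3B being the exceptions (adjusted p = 0.187 and 0.134).

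The falls were less clear in this comparison. None of the 9 DNA replication genes and none of the 6 cell cycle genes differed from uvr8 (lowest edgeR adjusted p = 0.0636 and 0.398), although their median differences were -1.78 and -0.83. MCM2 went from 98.7 to 67.7 CPM in uvr8 (difference -1.97, SE 0.63, adjusted p = 0.0693), so whether this fall differs between the strains was not settled by the test. Mean control levels also stood apart between the strains for some genes, a difference that was not tested. CYCB1 had a mean of 173 CPM in uvr8 and 33.0 CPM in wild type. CDKB1 stood at 77.3 and 37.2 CPM in the same order, CDKA1 at 116 and 134 CPM. In the plastid membrane stress list HSP22E (Cre14.g617450) stood at 300 and 4.69 CPM and VIPP1 (Cre13.g583550) at 418 and 230 CPM. What these starting levels mean for the comparison was not tested. BTA1, whose uvr8 means were 676 CPM without and 421 CPM under UV-B, had a difference of -0.81 (SE 0.36, adjusted p = 0.221). Among the photosystem genes, LHCB5, PSBO, PSBY and LHCBM9 (Cre06.g284200) had a lower effect in wild type (adjusted p = 0.00540, 0.0427, 0.0255 and 0.0435). LHCB7 had a higher one (difference 2.28, adjusted p = 7.69e-05). Within uvr8 alone edgeR called 0 genes, with 1209 at an unadjusted p under 0.05, and DESeq2 called 14.

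**Figure D5:**
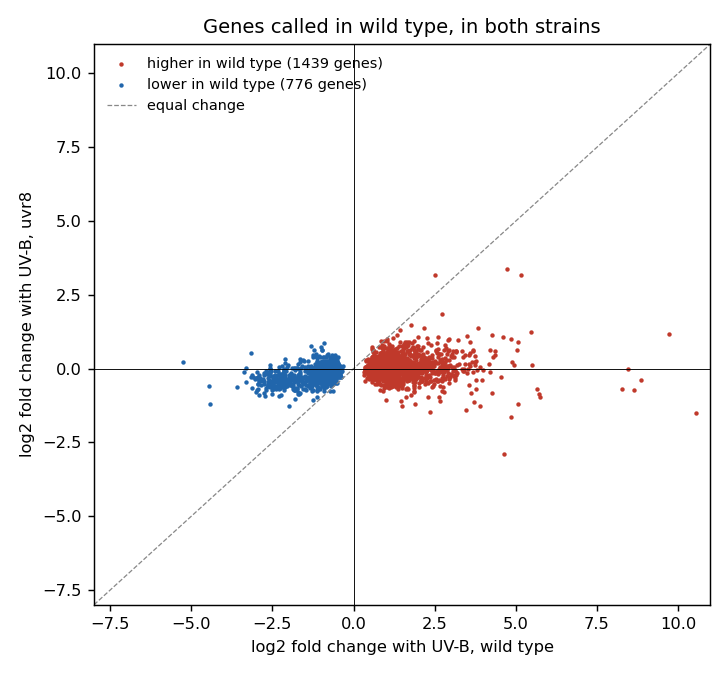
Log2 fold change with UV-B in uvr8 against that in wild type for the 2215 genes called in wild type; red points were called higher there, blue points lower, and the dashed line marks equal change. On the uvr8 axis the red points centre on 0.04 and the blue points on -0.21 (medians).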

How the data were processed

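Total RNA, treated with DNase, went into a stranded mRNA kit, per the labels' protocols; chloroplast genes held at most 0.00757% of counts. The deposited file holds unnormalized whole-number counts for 14621 genes in 24 libraries. The submitters' processing notes name bcl2fastq 2.20.0, then STAR 2.7.10b, also HTSeq 0.11.3, and edgeR in version 3.42.4, without roles. How strand and multi-mapping reads were handled is not given in the sources used here, so near-identical copies and antisense overlaps are uncertain. Identifiers carry the suffix of annotation version 6.1.

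The fit left out 126 genes with no count and 882 that failed filterByExpr (at least 10 counts, 15 in total). It used TMM factors and the means of all 8 groups, 24 libraries in all (edgeR 4.0.16, limma 3.58.1, R 4.3.3). Genes were called at a Benjamini-Hochberg adjusted p under 0.05, and the SE is the size of the log2 fold change divided by the square root of F. DESeq2 1.42.0 was an alternative, with others given below. The script was tested on simulated counts with 200 genes changed. It recovered 26% of the 2-fold and 85.9% of the 4-fold changes, with 7 false calls among 118. Same-numbered wild-type libraries deviated together (r = 0.571, 0.535 and 0.178, all over 0.1) and were taken as pairs on the counts alone. Control 3 also correlated with UV-B 2 (r = 0.183), so the third pair is weakly marked. The main fit did not use these pairs. The replicate block was a term for replicate number shared by all 24 libraries, whereas pairing was looked at in wild type alone.

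The members, the 36 lists and the tests were chosen with earlier results of these data known, and 43 of the 319 listed loci were added after the counts had been seen. Some of the 43 were outside the DNA replication, cytosolic ribosome and flagella lists. The rule for named genes takes every tested member of a list of 6 or fewer, the 4 smallest adjusted p of a longer one, the 15 largest called rises and falls by log2 at a mean of 1 CPM or more, the 15 by CPM, and the genes of the title and the mutants. Other members are given where a count of called genes is spelled out. Gene names were assigned from published locus identifiers recalled without a table. The RefSeq table used here (assembly v5.5) holds 0 symbols, so no name was checked against it. ELI1, ELI2, ELI4 and ELI5 were assigned partly by matching levels to earlier results of these data. Of the 319 loci, 308 were in the table and 303 were tested. Promoter motifs were not analysed here.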

Additional observations from a re-analysis of the deposited data

Results flagged for a closer look

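The UV-B effect differed between wild type and uvr8, by a test of the difference itself in edgeR, for 856 genes, which is 6.29% of those tested. Among the 303 tested list members it differed for 41, of which 37 had the higher effect in wild type and 4 the lower.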

How the results depend on the processing

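Both the number of called genes and the balance of rises and falls moved with the fit. With the replicate number as a block 3872 genes were called (2135 higher, 1737 lower), and in a fit of the wild-type libraries alone 911 (727 and 184). With library totals in place of scaling factors, an alternative chosen after seeing the data, 914 were higher and 1921 lower, so 32.2% of calls were rises compared with 65.0% in the scaled fit, 55.1% with the block and 79.8% with the wild-type libraries alone. Leaving out 1 library gave 1275 to 2227 calls, 965 to 1332 rises and 310 to 944 falls. The lowest totals came without control library 3 (965 and 310), and falls also dropped to 449 without control library 2 and 460 without UV-B library 3. Changes of 2-fold or more numbered 1224 in the scaled fit, 812 with the wild-type libraries alone, and lowered ones 717 with library totals, 721 with the block, 164 with the wild-type libraries alone and 175 to 574 without 1 library. The difference from uvr8 was called for 2003 genes with the block and 522 with the 12 libraries compared. Of list members 74 were called (51 higher, 23 lower). With the block 120 were (78 and 42), with the wild-type libraries alone 47 (9 lower), with library totals 53 were lower, and without 1 library 11 to 27 were lower. All 2215 calls were made again with the block. PSAD (Cre05.g238332), not called at 0.00, was called lower with library totals (-0.26), and no other listed or named gene that was called in either fit changed sign under any alternative. RLE scaling, no count filter and DESeq2 left the total within 1.5 times. With 3 libraries per group, a gene that was not called is not shown to be unchanged. The planned description of promoter motifs was not run.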
